A study of Mus musculus with 40 samples.

Results

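The Bcl2 family was followed here through 10 genes measured in mouse whole blood by RNA sequencing: Mcl1, Bcl2l1, Bcl2, Bcl2a1a, Bcl2a1b, Bcl2a1d, Bcl2l11, Bid, Bax and Bak1. The members were taken by gene name from the deposited expression table, which lists 54532 genes, and all 10 were found. Blood came from the posterior orbital venous plexus of 7-week-old female mice in 8 groups with 40 libraries in all. Of the Ifnar1+/+ mice, 3 were uninduced, 6 and 6 were given PBS and sampled on days 4 and 6 of pristane, and 6 and 6 were given spermine and sampled on the same days. Of the mice labelled Ifnar1-/-, 3 were uninduced and 5 and 5 were given PBS and sampled on days 4 and 6 of pristane. PBS or the polyamine spermine was given for 3 days before pristane, a hydrocarbon oil used to induce lupus-like disease in mice. No pretreatment is given for the uninduced mice, so pristane and PBS cannot be told apart in a comparison with them. The question set by the design is how blood transcripts respond to pristane, to loss of the type I interferon receptor subunit Ifnar1 and to spermine.

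Proteins of this family decide whether the outer mitochondrial membrane stays intact. Bax and Bak1 are the effectors that form pores in it and release cytochrome c; Mcl1, Bcl-xL (made from Bcl2l1), Bcl2 and A1 (made from the Bcl2a1 genes) hold them in check; and the BH3-only proteins Bim (made from Bcl2l11) and Bid set the effectors free or activate them. In blood, neutrophils are known to depend on Mcl1 and to express A1, maturing red cells and platelets depend on Bcl-xL, and resting lymphocytes depend on Bcl2.

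The libraries held between 9156431 and 14058050 fragments assigned to genes, of which hemoglobin genes took between 26.5% and 62.2%. A mitochondrial share of the non-hemoglobin fragments under 1.2% set 7 libraries apart, of which 3 were from Ifnar1+/+ PBS day 4, 2 from Ifnar1+/+ PBS day 6, and 1 each from Ifnar1+/+ uninduced and Ifnar1+/+ spermine day 6. Ifnar1 itself, summed over the whole gene, was between 5.85 and 10.3 FPKM in the 27 Ifnar1+/+ libraries and between 13.7 and 23.9 FPKM in the 13 labelled Ifnar1-/-. The 2 genotypes did not overlap, and a whole-gene value that is higher in the mice labelled Ifnar1-/- does not show the loss, so those mice are named by their label throughout. All 7 lists of blood cell markers were present in every group, and the platelet gene Gp1bb, at most 0.179 FPKM in any library, was the 1 marker at 0 in whole groups.

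The 3 Bcl2a1 genes are near-identical copies on chromosome 9, and their start regions are shown because the copies cannot be read as 3 independent measurements. The sequences are the 300-base windows around each start from RefSeq (GRCm38.p6), read on the gene's strand from chr9:88956670-88956969 (plus) for Bcl2a1a, chr9:89199023-89199322 (plus) for Bcl2a1b and chr9:88731801-88732100 (minus) for Bcl2a1d. Capitals mark the bases that differ between copies, insertions included.
Bcl2a1a: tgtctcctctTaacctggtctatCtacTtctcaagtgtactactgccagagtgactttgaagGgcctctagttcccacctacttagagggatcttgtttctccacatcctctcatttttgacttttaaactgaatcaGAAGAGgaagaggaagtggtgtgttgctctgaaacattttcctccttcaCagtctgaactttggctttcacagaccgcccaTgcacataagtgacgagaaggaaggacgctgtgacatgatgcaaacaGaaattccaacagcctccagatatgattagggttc
Bcl2a1b: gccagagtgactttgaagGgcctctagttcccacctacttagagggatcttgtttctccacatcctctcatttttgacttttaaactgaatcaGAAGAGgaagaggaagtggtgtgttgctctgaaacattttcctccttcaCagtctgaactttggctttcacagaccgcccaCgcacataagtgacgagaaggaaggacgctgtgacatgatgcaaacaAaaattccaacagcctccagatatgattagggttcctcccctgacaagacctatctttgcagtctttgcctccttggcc
Bcl2a1d: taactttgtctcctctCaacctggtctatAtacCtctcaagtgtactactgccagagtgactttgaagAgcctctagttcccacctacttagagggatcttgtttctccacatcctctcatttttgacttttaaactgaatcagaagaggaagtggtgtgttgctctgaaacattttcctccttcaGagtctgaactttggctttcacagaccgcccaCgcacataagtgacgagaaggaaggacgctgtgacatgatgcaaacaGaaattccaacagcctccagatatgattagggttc
Bcl2a1a and Bcl2a1b were identical at 254 of 256 aligned columns, Bcl2a1a and Bcl2a1d at 288 of 300, and Bcl2a1b and Bcl2a1d at 247 of 256. The transcripts were as close, with 98.2% identity between Bcl2a1a and Bcl2a1b, 98.8% between Bcl2a1a and Bcl2a1d and 99.1% between Bcl2a1b and Bcl2a1d. Of all 100-base stretches of the transcript, 43.5% of those of Bcl2a1a, 31.1% of those of Bcl2a1b and 54.7% of those of Bcl2a1d occurred in another copy, and no 400-base stretch did. Reads of these genes can therefore be split between copies in a way the table does not show, and their values are uncertain.

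A second sequence is shown for Bcl2l1, the member whose level varied most. It is the window of 1 of the gene's 3 annotated starts, chr2:152828440-152828739 on the minus strand (RefSeq, GRCm38.p6), with a match to the GATA motif in capitals.
Bcl2l1: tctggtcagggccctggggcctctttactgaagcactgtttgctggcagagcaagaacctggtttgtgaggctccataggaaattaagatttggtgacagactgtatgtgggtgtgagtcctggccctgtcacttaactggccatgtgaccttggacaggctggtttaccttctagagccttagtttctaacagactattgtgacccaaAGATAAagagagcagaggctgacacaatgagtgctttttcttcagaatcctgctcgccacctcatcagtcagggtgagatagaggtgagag
The motif AGATAA begins 41 bases before that start and was found in 11.2% of 32851 mouse promoter windows of this length. In the 13 windows of the 10 members, both strands were also searched for the STAT motif TTCNNNGAA (in 8.3% of all windows), the interferon-response motif, a GAAA repeated after any 2 bases (3.44%), and an NF-kB motif, GGG and TTTCC with any 2 bases between them (1.63%). The other matches were an NF-kB motif in a second Bcl2l1 window, 218 bases before the start, and an NF-kB motif in the Mcl1 window, 28 bases before the start. A match describes the letters in the window and is not evidence that a factor binds there.

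Transcript levels of the members differed widely between members, on a scale that is per length of gene. Mcl1, on chromosome 3, was the most abundant, with a lowest, median and highest value over the 40 libraries of 90.9, 119.6 and 147.3 FPKM (fragments normalised by the authors to gene length and library size). Bcl2l1, on chromosome 2, followed with 6.71, 25.0 and 121.0 FPKM. The effectors Bax (chromosome 7) and Bak1 (chromosome 17) had medians of 7.30 and 6.94 FPKM, and the BH3-only gene Bid (chromosome 6) a median of 5.89 FPKM. Bcl2 (chromosome 1) had a median of 4.29 FPKM and Bcl2l11 (chromosome 2) 2.75 FPKM. The Bcl2a1 copies lay lowest, at medians of 1.94 FPKM for Bcl2a1d, 0.645 FPKM for Bcl2a1b and 0.482 FPKM for Bcl2a1a.

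The order held in most single libraries, with exceptions between close neighbours. Mcl1 was above Bcl2l1 in 37 of 40 libraries, and Bcl2l1 was the higher in the other 3, all from Ifnar1+/+ PBS mice. Bcl2 was above Bcl2l11 in all 40 libraries. Bax was above Bak1 in 20 and below it in 20, so these neighbours had no fixed order. Bcl2a1b was above Bcl2a1a in 23 libraries and below it in 17, on counts of 0 to 33 reads for Bcl2a1b and 0 to 25 for Bcl2a1a.

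**Figure D1:**
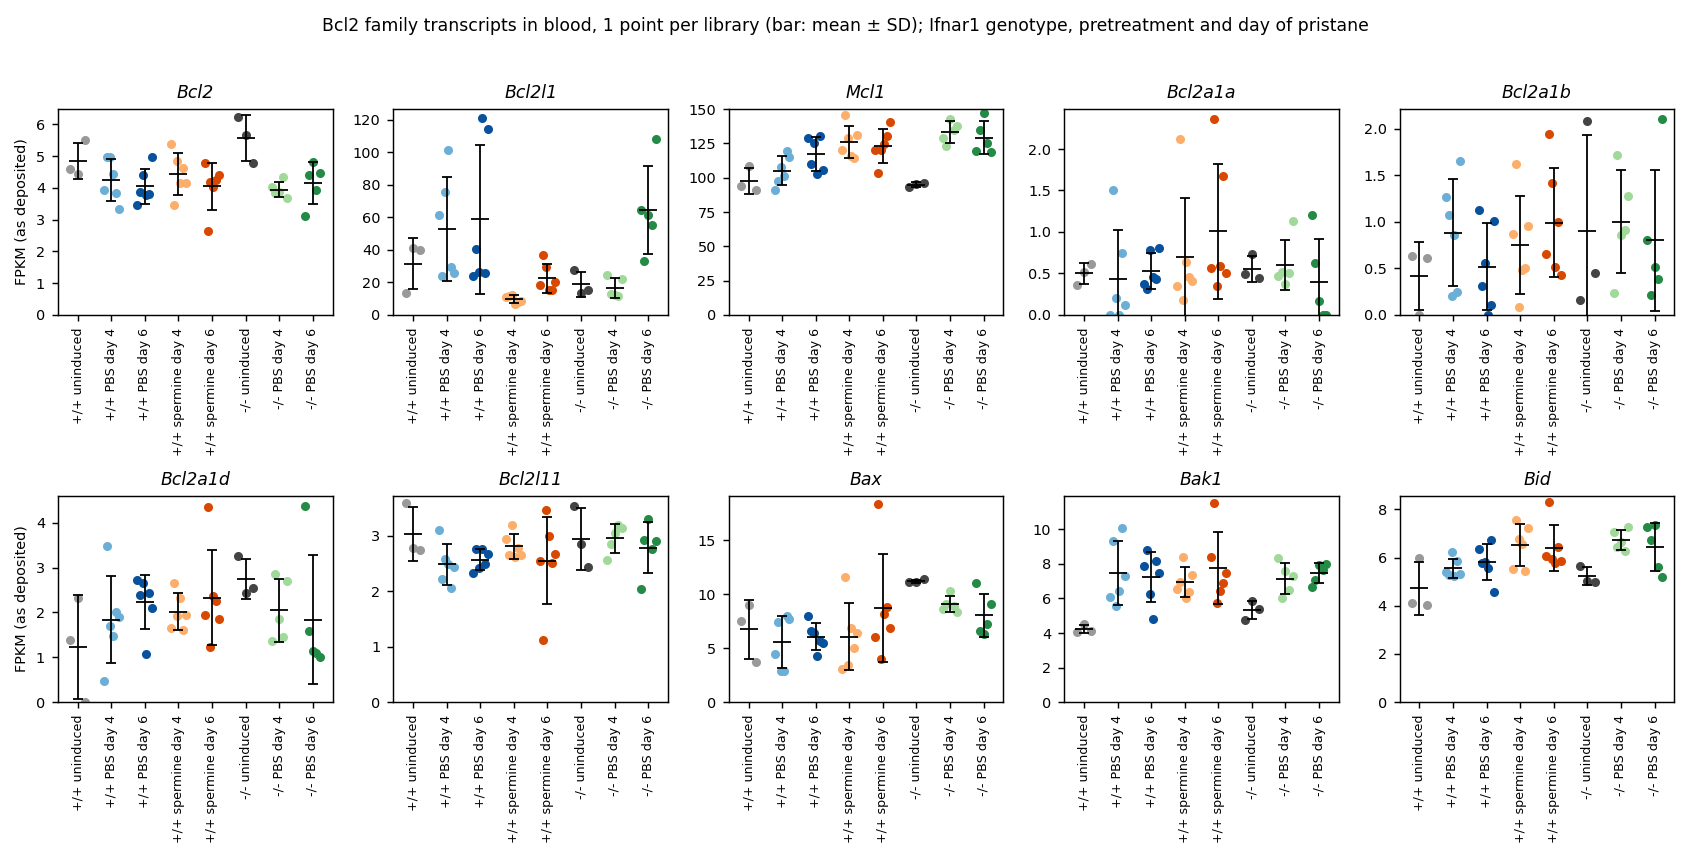
FPKM of each of the 10 genes (y axis, linear, from 0; scales differ between panels) in the 8 groups (x axis; +/+ and -/- are the Ifnar1 genotype labels). Points are libraries and bars are the mean ± SD; Bcl2l1 spans 6.71 to 121.0 FPKM, while Mcl1 stays between 90.9 and 147.3 FPKM.

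Each member was compared between groups with limma, fitted over all 11829 genes that reached 1 FPKM in at least 3 libraries, and called at an adjusted p under 0.05 (Benjamini-Hochberg over all those genes). All 10 members passed the expression filter. Changes are differences of log2(FPKM + 1), which understate the change of the low genes, the Bcl2a1 copies above all. Over 10 comparisons, 9 of the 100 member tests were called, and they fell on Bcl2l1, Mcl1, Bak1 and Bcl2. Of all genes tested, between 0.0423% (spermine at day 6) and 18.5% (genotypes at day 4) were called in a single comparison. The comparisons share groups, so the 100 tests are not independent, and the 9 calls are not taken as more than the share over all genes. Bcl2a1a, Bcl2a1b, Bcl2a1d, Bcl2l11, Bax and Bid were called in none of the 10 comparisons by this test.

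**Figure D2:**
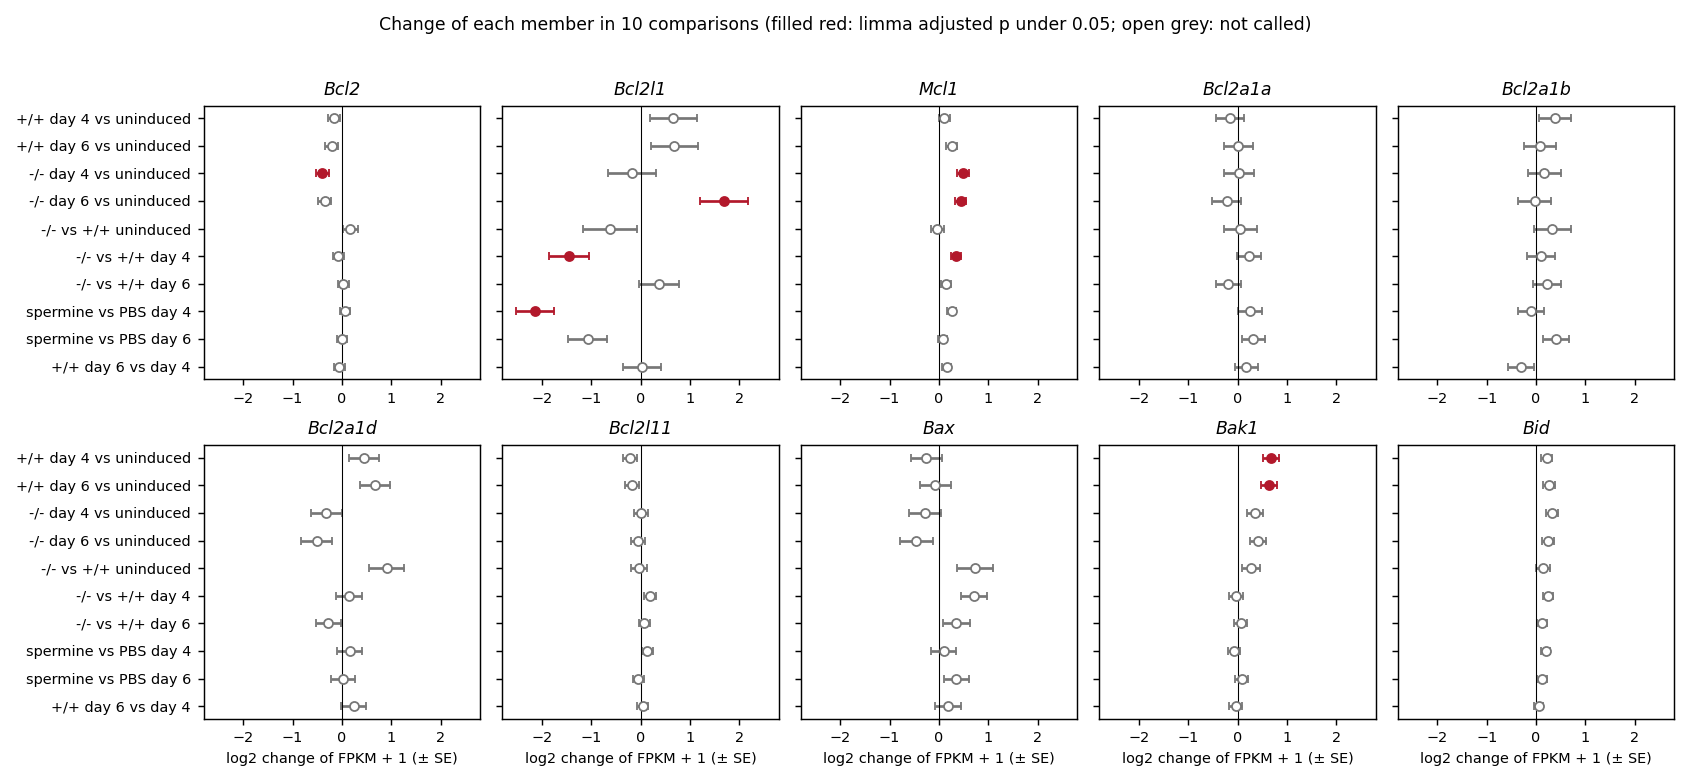
Change of log2(FPKM + 1) with its SE (x axis) for each gene in 10 comparisons (y axis; +/+ and -/- are the Ifnar1 genotype labels, and spermine was given to Ifnar1+/+ mice). Filled red points are the 9 changes called at adjusted p under 0.05, of which the fall of Bcl2l1 with spermine at day 4 (-2.14) is the largest in size.

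Spermine was followed at day 4 by a fall of Bcl2l1, which encodes the survival protein Bcl-xL. In the 6 Ifnar1+/+ PBS day 4 libraries Bcl2l1 was at 61.71, 23.96, 75.43, 101.5, 29.16 and 25.59 FPKM. In the 6 spermine day 4 libraries it was at 11.0, 11.67, 12.22, 6.705, 7.889 and 8.781 FPKM. Every spermine library lay below every PBS library, as in 4.29% of all genes tested, and the spermine libraries were also the closer to each other. The change was -2.14 ± 0.39 (log2, SE; limma adjusted p = 0.000155), and the mean of 9.71 FPKM with spermine was 0.184 times that with PBS.

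Bcl2l1 was the 1 member of 10 called in this comparison, beside 9.13% of all genes tested. Mcl1, which neutrophils depend on, had 0.26 ± 0.09 (adjusted p = 0.0826), from a mean of 105 ± 10.8 FPKM with PBS to 126 ± 11.99 FPKM with spermine (SD, n = 6 and 6). The remaining 8 members had adjusted p-values between 0.28 and 0.905, and their changes lay between -0.10 for Bcl2a1b and 0.25 for Bcl2a1a. The members' median change was 0.11, against 0.01 over all genes tested.

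The erythroid markers moved in the same direction as Bcl2l1. Of the 10 erythroid markers (among them the band 3 gene Slc4a1 and the heme synthesis gene Alas2), 8 were called lower with spermine at day 4, with a median change of -2.70. Their summed level was between 13832.8 and 45785.5 FPKM in the PBS day 4 libraries and between 2937.6 and 7755.8 FPKM in the spermine day 4 libraries. Of the 10 neutrophil markers, 9 were called higher, with sums of 1032.2 to 4017.1 FPKM with PBS and 2788.0 to 5593.0 FPKM with spermine. The part of these cell markers in the change of Bcl2l1 was not tested, and in bulk blood fewer cells of a type and less RNA per cell cannot be told apart.

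Bcl2l1 per 1000 FPKM of the summed erythroid markers, a ratio added after the values were seen, was 1.88 ± 0.52 in PBS day 4 and 2.21 ± 0.96 in spermine day 4 (SD, n = 6 and 6). Those ranges, 1.35 to 2.83 and 1.48 to 3.97, overlapped, while the Bcl2l1 level itself did not. The 3 PBS day 4 libraries with the highest Bcl2l1, between 61.71 and 101.5 FPKM, were the 3 of low mitochondrial share, and the other 3 lay between 23.96 and 29.16 FPKM. Without the 7 libraries of low mitochondrial share, Bcl2l1 stayed called in this comparison with a smaller change, -1.37 (adjusted p = 0.00763).

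At day 6 the spermine difference of Bcl2l1 had the same sign and was not called. The lowest, median and highest values were 24.1, 33.7 and 121.0 FPKM with PBS and 15.1, 19.4 and 37.1 FPKM with spermine, and the groups overlapped. The change was -1.07 ± 0.39 (limma adjusted p = 0.149). By limma none of the 10 members was called at day 6, beside 0.0423% of all genes; 1 member, Bcl2l1, had an unadjusted p under 0.05, and limma-voom on recovered reads called 0. The difference between the day 6 and day 4 effects on Bcl2l1 was 1.07 ± 0.55 (adjusted p = 0.735), so a difference between days was not shown. In that interaction limma called 0 members beside 0.0169% of all genes, with 0 at an unadjusted p under 0.05 and 0 by limma-voom.

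**Figure D3:**
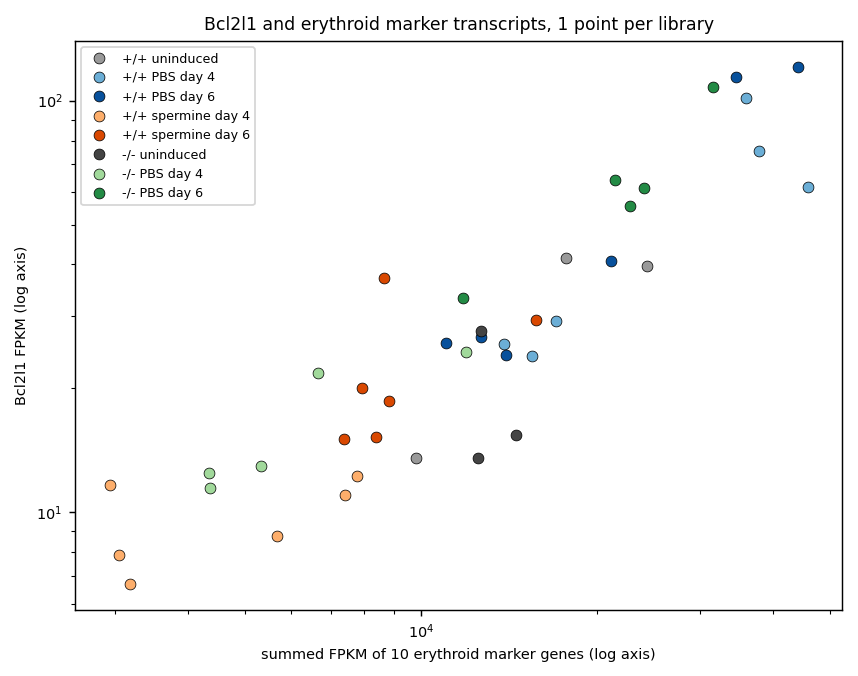
Bcl2l1 FPKM (y axis, log) against the summed FPKM of 10 erythroid marker genes (x axis, log), 1 point per library, coloured by group (+/+ and -/- are the Ifnar1 genotype labels). Spermine day 4 libraries lie at 2937.6 to 7755.8 on the x axis and 6.71 to 12.2 on the y axis, and the high PBS libraries at the opposite corner.

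The level of Bcl2l1 varied 6.63-fold between the lowest and the highest group mean, the widest of the 10 members. In descending order the means were 64.4 ± 27.2 FPKM in Ifnar1-/- PBS day 6, 58.7 ± 46.0 in Ifnar1+/+ PBS day 6, 52.9 ± 31.9 in Ifnar1+/+ PBS day 4 and 31.6 ± 15.6 in Ifnar1+/+ uninduced (SD, n = 5, 6, 6 and 3). Below them came 22.6 ± 8.81 in spermine day 6, 18.8 ± 7.60 in Ifnar1-/- uninduced, 16.6 ± 6.05 in Ifnar1-/- PBS day 4 and 9.71 ± 2.24 in spermine day 4 (SD, n = 6, 3, 5 and 6). Each pair of neighbours in this order overlapped. After each group's mean was taken out, Bcl2l1 over the 40 libraries had a Pearson r of 0.826 with the summed erythroid markers, 0.780 with the platelet markers and -0.558 with the neutrophil markers. The 3 genes most like it were Slc25a51 (r = 0.979), the basigin gene Bsg (0.974) and the proteasome subunit gene Psmd4 (0.971), among 3531 genes. These correlations are descriptions, and all genes of a library share its depth and scaling.

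Between genotypes at day 4, Bcl2l1 was lower and Mcl1 higher in the mice labelled Ifnar1-/-. Bcl2l1 was at 24.5, 12.95, 12.49, 11.44 and 21.82 FPKM in the 5 labelled Ifnar1-/- libraries, against the 6 Ifnar1+/+ PBS day 4 values given above. Of the 5, 1 library at 24.5 FPKM lay above the lowest Ifnar1+/+ value of 23.96 FPKM, so the groups overlapped. The change was -1.46 ± 0.41 (limma adjusted p = 0.0101), and -0.24 with a fixed total that includes hemoglobin (adjusted p = 0.379). Without the 7 libraries of low mitochondrial share, 3 of which are the highest in this control group, it was -0.69 with an adjusted p of 0.252, and the call was lost.

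Mcl1 was at 129.2, 122.8, 143.0, 134.6 and 138.0 FPKM in the labelled Ifnar1-/- day 4 libraries. In the 6 Ifnar1+/+ PBS day 4 libraries it was at 90.9, 97.75, 107.7, 101.0, 119.3 and 115.1 FPKM. The groups did not overlap, and the change was 0.34 ± 0.10 (limma adjusted p = 0.0115). Without the same 7 libraries it was 0.27 with an adjusted p of 0.121. Bcl2l1 and Mcl1 were the 2 members of 10 called in this comparison, beside 18.5% of all genes, and the members' median change was 0.17 against 0.00 over all genes.

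Bax and Bid also did not overlap between the genotypes at day 4 and were not called. Bax, a pore-forming effector, was at 9.05 ± 0.73 FPKM in the labelled Ifnar1-/- mice and 5.54 ± 2.42 FPKM in Ifnar1+/+ (SD, n = 5 and 6), with a change of 0.71 ± 0.27 and a limma adjusted p of 0.0658. Bid, which is cut by caspase 8 to a form that activates Bax and Bak1, was at 6.73 ± 0.41 and 5.55 ± 0.40 FPKM, with 0.24 ± 0.10 and an adjusted p of 0.0941. Together Bax, Bid and Mcl1 were the 3 members higher in every labelled Ifnar1-/- library, a pattern seen in 6.2% of all genes. In the same comparison all 10 neutrophil markers were called higher, with sums of 6370.6 to 7991.5 FPKM against 1032.2 to 4017.1 FPKM. Of the 10 erythroid markers 8 were called lower, with sums of 4338.5 to 11916.5 FPKM against 13832.8 to 45785.5 FPKM. The balance of long and short transcripts, described below, also differed in its median between these groups. The part of these markers or of that balance in the changes of the members was not tested.

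At the other times the genotypes were not separated by a called member. In uninduced mice limma called 0 members, beside 0.406% of all genes; 1 member, Bcl2a1d, had an unadjusted p under 0.05, and limma-voom called 0. Bcl2a1d was at 3.25, 2.441 and 2.554 FPKM in the labelled Ifnar1-/- libraries and at 1.376, 2.317 and 0 FPKM in Ifnar1+/+, on at most 24 reads (0.91 ± 0.35, adjusted p = 0.413). Bax, at 11.1, 11.08 and 11.36 FPKM against 7.535, 8.973 and 3.671 FPKM, also did not overlap (0.73 ± 0.37, adjusted p = 0.561). Nor did Bak1, at 4.771, 5.835 and 5.419 FPKM against 4.039, 4.51 and 4.127 FPKM (0.28 ± 0.19, adjusted p = 0.626). These 3 members stood beside 10.1% of all genes that were higher in every labelled Ifnar1-/- uninduced library. At day 6 limma called 0 members beside 3.2% of all genes, with 0 at an unadjusted p under 0.05 and 0 by limma-voom, and Bcl2l1 had 0.38 ± 0.41 (adjusted p = 0.711). Without the 7 libraries of low mitochondrial share, 2 of which are the highest of the Ifnar1+/+ group, Bcl2l1 was called higher in the mice labelled Ifnar1-/- (1.04, adjusted p = 0.0408).

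Bak1, the other pore-forming effector, rose with pristane in Ifnar1+/+ mice on both days. It was at 4.039, 4.51 and 4.127 FPKM in the 3 uninduced libraries. On day 4 it was at 6.094, 9.342, 5.58, 6.425, 10.07 and 7.298 FPKM, and on day 6 at 7.877, 8.81, 6.27, 4.797, 8.15 and 7.487 FPKM. Every pristane library was above every uninduced one on both days, as in 3.94% of all genes tested on day 4 and 7.13% on day 6. The changes were 0.67 ± 0.16 on day 4 (limma adjusted p = 0.016) and 0.64 ± 0.16 on day 6 (adjusted p = 0.00927). Both comparisons share the 3 uninduced libraries, and both calls were lost when only the groups compared were fitted (adjusted p = 0.193 and 0.0574) and with fixed library totals (changes of 0.35 to 0.41, adjusted p = 0.39 to 0.874).

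Bak1 was the 1 member called on each day, beside 2.1% of all genes on day 4 and 8.17% on day 6. Without uninduced replicate 1 or 3 the call was lost on both days, and without PBS day 4 replicate 5 it was lost on day 4, with adjusted p-values up to 0.089. Neutrophil markers rose beside it, 8 of 10 on day 4 and 10 of 10 on day 6, with sums of 390.1 to 661.4 FPKM in uninduced, 1032.2 to 4017.1 FPKM on day 4 and 1484.2 to 5551.5 FPKM on day 6. Of the 5 Ly6C-high monocyte markers, 2 were called higher on day 4 and 5 on day 6. Of the 8 T cell markers, 0 were called on either day. Within groups the Pearson r of Bak1 was 0.477 with the neutrophil sum, 0.350 with the monocyte sum and 0.501 with the T cell sum. The part of any of these cells in the change of Bak1 was not tested. Bcl2l1 had 0.66 ± 0.47 on day 4 and 0.68 ± 0.47 on day 6 (adjusted p = 0.576 and 0.393), with an SD of 31.9 and 46.0 FPKM between the libraries of those groups.

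In the mice labelled Ifnar1-/-, Bak1 was at 4.771, 5.835 and 5.419 FPKM uninduced and had a mean of 7.15 ± 0.91 FPKM on day 4 and 7.47 ± 0.57 FPKM on day 6 (SD, n = 5 and 5). Its changes of 0.36 ± 0.17 and 0.42 ± 0.17 were not called (limma adjusted p = 0.24 and 0.098), although neither day overlapped with uninduced, as in 13% and 12.7% of all genes tested in that direction. They were called when only the groups compared were fitted (adjusted p = 0.0469 and 0.0358). They were also called with the 7 low-mitochondrial libraries left out (adjusted p = 0.0465 and 0.0115). None of those 7 is in these groups, so the changes stayed the same and only the estimate of the spread differed. The difference between the genotypes was not shown either: the interaction was -0.31 ± 0.23 on day 4 and -0.22 ± 0.23 on day 6 (adjusted p = 0.713 and 0.998). In both genotype interactions limma called 0 members, beside 0.254% of all genes on day 4 and 0.0254% on day 6. On each day 1 member had an unadjusted p under 0.05, Mcl1 on day 4 and Bcl2a1d on day 6, and limma-voom called 0.

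Mcl1 rose on both days of pristane in the mice labelled Ifnar1-/-, except that on day 6 its sign turned to -0.08 when libraries were scaled to a fixed total without hemoglobin. It was at 92.95, 95.39 and 96.42 FPKM uninduced, against the day 4 values given above. On day 6 it was at 119.3, 134.6, 147.3, 125.6 and 118.6 FPKM. All 10 pristane libraries were above all 3 uninduced ones. Of all genes tested, 13% were higher without overlap on day 4 and 12.7% on day 6. The changes were 0.49 ± 0.12 on day 4 (limma adjusted p = 0.00463) and 0.43 ± 0.12 on day 6 (adjusted p = 0.0121), from the same 3 uninduced libraries. With a fixed total without hemoglobin, day 4 had 0.69 and an adjusted p of 0.132. In Ifnar1+/+ mice Mcl1 had 0.10 ± 0.11 and 0.26 ± 0.11 (adjusted p = 0.748 and 0.17), and the interaction was 0.38 ± 0.16 on day 4 (adjusted p = 0.409). In the mice labelled Ifnar1-/- all 10 neutrophil markers and all 5 Ly6C-high monocyte markers were called higher on both days. The neutrophil sums were 838.5 to 933.7 FPKM uninduced, 6370.6 to 7991.5 FPKM on day 4 and 5431.9 to 8782.0 FPKM on day 6, and the monocyte sums were 39.5 to 44.2, 148.4 to 207.2 and 142 to 251.2 FPKM. Within groups the Pearson r of Mcl1 was 0.412 with the neutrophil sum and 0.466 with the monocyte sum, and their part in its change was not tested.

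Bcl2l1 rose on day 6 in the mice labelled Ifnar1-/- and not on day 4. From 27.55, 13.56 and 15.4 FPKM uninduced, it stood at 64.25, 33.14, 61.25, 55.47 and 107.9 FPKM on day 6, all above all 3 uninduced libraries, as in 12.7% of all genes tested. The change was 1.69 ± 0.49 (limma adjusted p = 0.0197), and on day 4 it was -0.17 ± 0.49 (adjusted p = 0.924). The day 6 call was lost without uninduced replicate 2, uninduced replicate 3 or day 6 replicate 5, with adjusted p-values up to 0.119. Erythroid markers moved with it on day 6, when 6 of 10 were called higher with sums of 11776.6 to 31530.2 FPKM against 12524.9 to 14539.3 FPKM uninduced, as were 4 of 6 tested platelet markers. Their part was not tested. Per 1000 FPKM of erythroid markers, Bcl2l1 was 2.84 ± 0.39 on day 6 and 1.44 ± 0.64 uninduced (SD, n = 5 and 3). These ranges, 2.44 to 3.42 and 1.06 to 2.17, did not overlap. The ratio was also high on day 4, at 2.65 ± 0.46 (SD, n = 5). Its day 4 range of 2.06 to 3.27 overlapped with uninduced and with day 6, so a high ratio was not particular to day 6.

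Bcl2, which resting lymphocytes depend on, fell on day 4 in the mice labelled Ifnar1-/-, by a call that changed its side with most settings and whose sign turned to 0.45 with a fixed total that includes hemoglobin. It was at 6.242, 5.675 and 4.785 FPKM uninduced and at 4.015, 3.831, 3.875, 4.329 and 3.675 FPKM on day 4, without overlap. Of all genes tested, 10.1% were lower without overlap in this comparison. The change was -0.40 ± 0.13 (limma adjusted p = 0.0482). The call was kept under 2 of 8 alternative settings, and was lost in 7 of the 8 fits that left out 1 of these libraries. On day 6 Bcl2 had -0.35 ± 0.13 (adjusted p = 0.0725). The members called were 2 of 10 on day 4, beside 8.12% of all genes, and 2 of 10 on day 6, beside 11.8% of all genes.

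Between days 4 and 6 of pristane in Ifnar1+/+ PBS mice, limma called 0 members, beside 0.473% of all genes. No member had an unadjusted p under 0.05, and limma-voom called 0. The smallest p was that of Mcl1, at 0.15 ± 0.09 (adjusted p = 0.442).

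The make-up of the pro-survival transcripts moved with Bcl2l1. Of the summed FPKM of the 6 pro-survival genes, Mcl1 took 74.8% on average and between 44.8% and 89% in single libraries. Its share was 65.1 ± 12.6% in Ifnar1+/+ PBS day 4 and 87.8 ± 1.17% in spermine day 4 (SD, n = 6 and 6), without overlap. Bcl2l1 took 30.2 ± 13.8% and 6.72 ± 1.198% in the same groups. In the mice labelled Ifnar1-/- its share was 10.5 ± 3.49% on day 4 and 31.3 ± 9.81% on day 6 (SD, n = 5 and 5). Bcl2 took between 1.62% and 4.78% and the 3 Bcl2a1 copies together between 0.67% and 5.68% of the sum in all 40 libraries. These shares follow from the levels above and are given as a description. The share of the Bcl2a1 copies may be too low if reads that match more than 1 copy were left out.

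**Figure D4:**
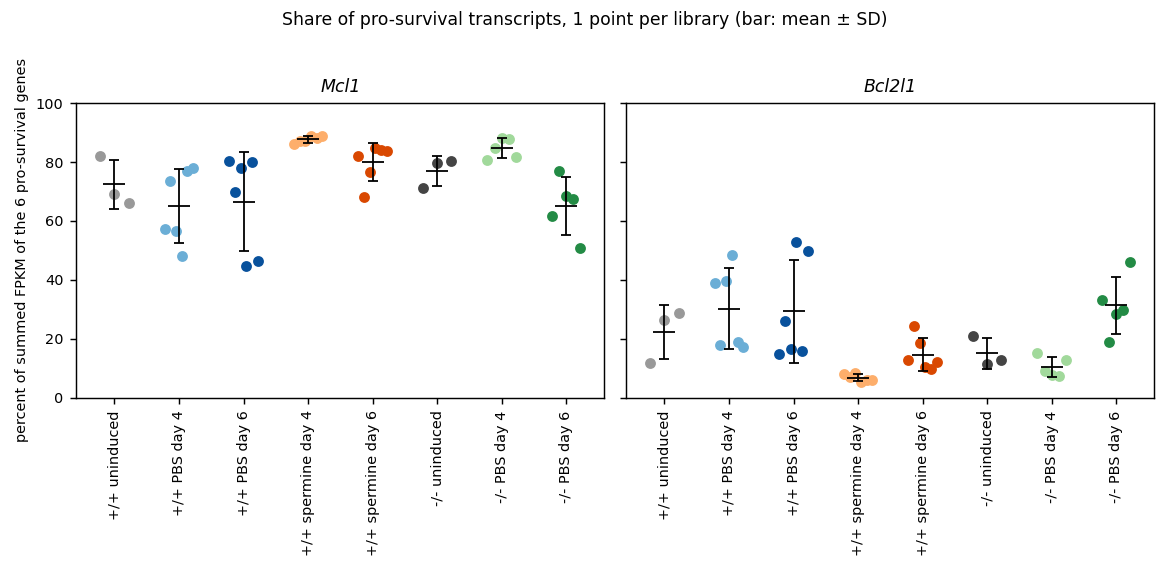
Share of Mcl1 (left) and Bcl2l1 (right) in the summed FPKM of the 6 pro-survival genes (y axis, percent, 0 to 100), 1 point per library with mean ± SD by group (x axis; +/+ and -/- are the Ifnar1 genotype labels). In spermine day 4 libraries Mcl1 lies at 86.2% to 89% and Bcl2l1 at 5.16% to 8.23%.

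Of the 2 effectors, Bax made up 50.3% of their summed FPKM over the 40 libraries. Its share was 59.6 ± 10.9% in Ifnar1+/+ uninduced, 41.1 ± 7.43% on PBS day 4 and 45.6 ± 4.22% on PBS day 6 (SD, n = 3, 6 and 6). In the mice labelled Ifnar1-/- it was 67.7 ± 2.22% uninduced, 56.0 ± 3.75% on day 4 and 51.2 ± 6.94% on day 6 (SD, n = 3, 5 and 5). Bax itself was not called in any of the 10 comparisons by the limma test described above. In the mice labelled Ifnar1-/- it lay below every uninduced library on both days, as in 10.1% and 8.05% of all genes tested. With only the groups compared, limma called it lower there on day 4 (-0.28, adjusted p = 0.0342).

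Within groups, several members moved with the balance between long and short transcripts. This balance, added after the values were seen, is the mean log2 level of 738 genes of at least 6000 bases minus that of 652 genes of at most 2000 bases, and ran from -2.56 to -0.35. Bax, with 1576 bases, had a Pearson r of -0.89 with it over the 40 libraries after group means were taken out. Bcl2, with 9157 bases, had 0.75 and Bcl2l11, with 8029 bases, had 0.68. Bcl2a1d and Bcl2a1a, with 863 and 819 bases, had -0.67 and -0.66, and the shortest member, Bcl2a1b with 817 bases, had -0.22. Bid and Bak1, with 3550 and 2407 bases, had -0.58 and -0.48, and Bcl2l1 and Mcl1 had 0.08 and -0.09, so r did not follow gene length in every member. The balance was lowest in spermine day 6 replicate 2, where Bax was highest at 18.31 FPKM and Bcl2 lowest at 2.642 FPKM. Without that library r was -0.87 for Bax and 0.66 for Bcl2. The median balance at PBS day 4 was -0.83 in Ifnar1+/+ and -1.17 in the mice labelled Ifnar1-/-. In uninduced mice it was -0.84 and -1.17. The ranges of the genotypes overlapped both times. Bax was higher in the mice labelled Ifnar1-/- in both of these comparisons, without overlap. The part of this balance in any change between groups was not tested.

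**Figure D5:**
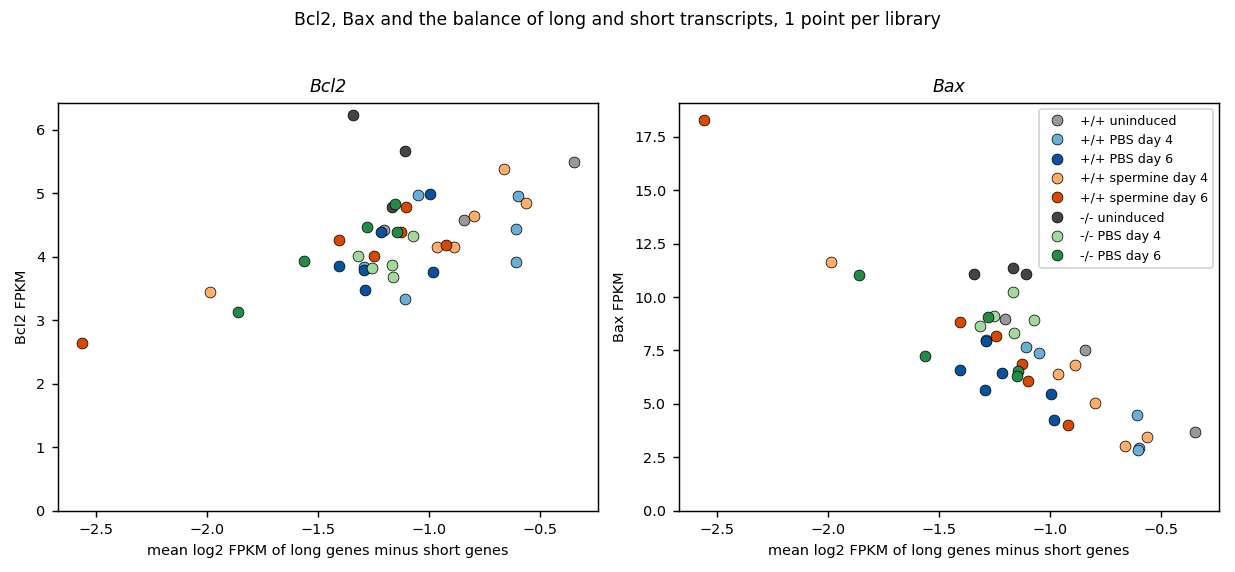
Bcl2 (left) and Bax (right) in FPKM (y axis, from 0) against the mean log2 level of long genes minus that of short genes (x axis), 1 point per library, coloured by group (+/+ and -/- are the Ifnar1 genotype labels). Spermine day 6 replicate 2 lies farthest left, at -2.56, with Bcl2 at 2.642 and Bax at 18.31 FPKM.

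Among themselves the members showed the same division, with a within-group Pearson r of -0.696 between Bcl2 and Bax, -0.604 between Bcl2l11 and Bax, 0.569 between Bcl2 and Bcl2l11 and 0.657 between Bcl2a1d and Bax. The genes most like Bcl2 were Itpkb (r = 0.825), Bach2 (0.780), which encodes a B cell transcription factor, and Elmsan1 (0.773). Itpkb, Bach2 and Elmsan1 are long, with 10463, 9940 and 7611 bases. Bcl2 itself had a within-group r of -0.571 with the summed B cell markers and -0.645 with the summed T cell markers. The genes most like Bax were Vps28 (0.931), the splicing factor gene Snrpb (0.930) and the G protein subunit gene Gnb2 (0.919). Mcl1 was most like Cmtm6 (0.802), the complement C5a receptor gene C5ar1 (0.797) and Rassf3 (0.777). Bak1 was most like Ms4a6d (0.710), the properdin gene Cfp (0.702) and Unc93b1 (0.679), and Bid was most like the Fc receptor gene Fcgr3 (0.742), Emb (0.720) and the lectin gene Clec4d (0.714).

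Of the BH3-only members Bcl2l11 varied little between groups and Bid more, and the Bcl2a1 copies had few reads. Bcl2l11 had group means between 2.49 and 3.04 FPKM, a ratio of 1.22, the smallest of the 10 members. Bid had group means between 4.72 FPKM in Ifnar1+/+ uninduced and 6.73 FPKM in Ifnar1-/- PBS day 4. That ratio of 1.427 was near those of Mcl1 (1.406) and Bcl2 (1.411). In the mice labelled Ifnar1-/-, Bid on day 4 lay above every uninduced library, as in 13% of all genes tested, and was not called (limma adjusted p = 0.124). With only the groups compared it was called there (adjusted p = 0.0178) and between genotypes at day 4 (adjusted p = 0.0313). Summed over the 3 copies, Bcl2a1 had between 7 and 101 reads per library and group means between 2.15 ± 0.83 FPKM in Ifnar1+/+ uninduced and 4.33 ± 2.25 FPKM in spermine day 6 (SD, n = 3 and 6). Bcl2a1a was listed at 0 in 4 libraries, Bcl2a1b in 2 and Bcl2a1d in 1.

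Around the members, 32 of 41 listed genes of the pathway were tested, and the other 9 were too low. In the genotype comparison at day 4, 6 were called higher and 1 lower, beside 18.5% of all genes, which is also the comparison with the most calls over all genes. Of the other Bcl2 family genes, 6 of 13 were tested, and the BH3-only genes Pmaip1 (which encodes Noxa, a binder of Mcl1) and Bbc3 (which encodes Puma) were called higher there, by 0.70 ± 0.19 and 0.61 ± 0.17 (limma adjusted p = 0.00976 and 0.0121). Pmaip1 was at a mean of 2.99 FPKM against 1.48 FPKM, and Bbc3 at 3.69 FPKM against 2.08 FPKM. No other gene of this list was called in any of the 10 comparisons.

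Of the 12 apoptosome and caspase genes, 11 were tested. The inhibitor of apoptosis gene Birc2 was called lower (-0.51 ± 0.16, limma adjusted p = 0.0258) in the mice labelled Ifnar1-/- at day 4, from a mean of 12.8 FPKM in Ifnar1+/+ to 8.72 FPKM. With pristane in those mice, Casp9, the caspase started by the apoptosome, was called higher on day 4 (0.36 ± 0.11, adjusted p = 0.0278). None of this list was called in Ifnar1+/+ mice with pristane or with spermine.

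Of the 10 death receptor genes, 9 were tested. Fas was called higher with pristane on day 6 in Ifnar1+/+ mice (0.83 ± 0.20, limma adjusted p = 0.00487), in the mice labelled Ifnar1-/- against Ifnar1+/+ at day 4 (0.66 ± 0.17, adjusted p = 0.00445) and with spermine at day 4 (0.69 ± 0.16, adjusted p = 0.0026). The TNF receptor gene Tnfrsf1a was called higher in 4 comparisons, by 1.03 with pristane on day 6 in Ifnar1+/+ mice, by 1.09 and 1.13 on days 4 and 6 in the mice labelled Ifnar1-/- and by 0.84 between genotypes at day 4. Its adaptor gene Tradd was called higher between genotypes at day 4 (0.64 ± 0.21, adjusted p = 0.0346). The ligand genes were called lower with pristane in the mice labelled Ifnar1-/-, Fasl with changes of -0.74 and -0.72 on days 4 and 6 and Tnfsf10 with -0.46 on day 6. The 6 regulators of member abundance or activation, Foxo3, Trp53, Vdac2, Huwe1, Usp9x and Fbxw7, were all tested, and none was called in the 10 comparisons.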

How the data were processed

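RNA of mouse whole blood was poly(A)-selected and sequenced; per the submitters' processing notes, DESeq2 1.20.0, featureCounts 1.5.0-p3, HISAT2 2.0.5, CASAVA 1.8 and fastp were among the tools, on build GRCm38 (mm10). The deposited table gives FPKM per gene for 40 libraries, with no counts. In every library 100% of the non-zero FPKM values came out as whole reads (within 0.001 read) once gene length and a library factor of the median-of-ratios kind were divided out, so the deposited FPKM are already scaled by such factors and were used as they stand. Log2(FPKM + 1) was fitted with limma 3.58.1 (R 4.3.3) over all 40 libraries with 8 group means and a trended prior, after dropping genes that reached 1 FPKM in fewer than 3 libraries, and checked on simulated data. Alternatives were fixed library totals with and without hemoglobin, a pseudocount of 0.1, no filter, only the groups compared, limma-voom on the recovered reads, 7 libraries left out, a replicate block, and each library left out in turn. Of the table's identifiers 99.8% matched the gene names used. Recovered reads are not independent molecules, so depth covers counting error only.

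The members, the pathway lists and the marker lists were chosen with earlier results of these data known. All 10 members are described; of each pathway list at most the 4 genes of smallest p in a comparison are named; and the 3 like genes of a member are those of highest Pearson r within groups, for members whose mean reached 5 FPKM in some group. The length balance, the ratio to erythroid markers, the motif search and the copy comparison were added after values were seen. Columns were matched to samples by treatment, day and number; those of the Ifnar1+/+ pristane mice name no genotype and were assigned because the mice labelled Ifnar1-/- have columns of their own, and columns named as controls were taken as the uninduced mice. Same-numbered libraries did not pair: no comparison had every same-number correlation above 0.1. Single results for some genes of the apoptosome and caspase list are not reported here.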

Additional observations from a re-analysis of the deposited data

Results flagged for a closer look

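Each member was looked at in each group of 5 or 6 libraries for a single library far from the rest (Dixon's criterion at the 95% level, 60 groups tested); chance alone flags about 1 group in 20, and 8 were flagged. Of the 8, 4 lie in 1 library, spermine day 6 replicate 2, which also has the lowest balance of long against short transcripts (-2.56). There Bax was at 18.31 FPKM with the next highest library of the group at 8.843, Bid at 8.319 with the next at 6.443, Bcl2a1d at 4.343 with the next at 2.376, and Bcl2 was lowest at 2.642 with the next at 4.011 FPKM.

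The other 4 concern the Bcl2a1 copies, which have few reads. Bcl2a1a was highest in spermine day 4 replicate 2, at 2.125 FPKM with the next library at 0.638, and in Ifnar1-/- PBS day 4 replicate 5, at 1.135 with the next at 0.521. Bcl2a1d was lowest in Ifnar1+/+ PBS day 6 replicate 4, at 1.079 with the next at 2.107, and highest in Ifnar1-/- PBS day 6 replicate 1, at 4.38 with the next at 1.595 FPKM. Spermine day 4 replicate 2 and Ifnar1-/- PBS day 6 replicate 1 had balances of -1.99 and -1.86. The part of this balance in the flagged values was not tested.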

How the results depend on the processing

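The fall of Bcl2l1 with spermine at day 4 kept its sign and its call under all 8 alternative settings (-2.29 to -0.95, adjusted p 2.56e-05 to 0.00763) and in all 12 fits that left out 1 of its libraries (adjusted p up to 0.00109). Scaling to fixed totals moved the median of all genes by 0.51 without hemoglobin and 0.85 with it in that comparison, and by 0.43 and 0.83 between genotypes at day 4. The members called then went from 1 to 8 (7 higher) and 9 (8 higher) with spermine at day 4, and from 2 to 7 (6 higher) and 9 (9 higher) between genotypes at day 4, where Bcl2l1 was not called with hemoglobin included (-0.24, adjusted p = 0.379). Most genes were called there as well. With spermine, 8131 of 12118 and 10404 of 12780 genes were called higher, and 488 and 305 lower. Between genotypes 6288 and 10077 of the same totals were called higher, and 428 and 161 lower. Relative to the median, Bcl2l1 was at -1.94 and -1.79 with spermine, and at -1.25 and -1.07 between genotypes. Why calls changed with a setting was not tested. In the order without and with hemoglobin, fixed totals gave 0 and 0 members for Ifnar1+/+ on day 4 and on day 6 against uninduced (1 each in the main result), and 0 and 5 for Ifnar1-/- on day 4 (2). With hemoglobin they gave 1 for Ifnar1-/- on day 6 (2), 4 for spermine at day 6 (0) and 3 for the genotype interaction at day 4 (0). Of 12780 genes with hemoglobin, 5728 were called higher and 16 lower for Ifnar1-/- on day 4, and 176 and 16 on day 6. For spermine at day 6 it was 4002 and 59, and for the interaction 3428 and 3. Fixed totals also turned the sign of some changes. Under them Bcl2 on day 4 in Ifnar1-/- turned to 0.45 (with hemoglobin, median shift 0.67) and Mcl1 on day 6 to -0.082 (without, median shift -0.35).

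With only the groups compared, the members called were 0 for Ifnar1+/+ on day 4, 0 on day 6 and 5 for Ifnar1-/- on day 4, and Mcl1 on day 6 in Ifnar1-/- had an adjusted p of 0.0634. In that Ifnar1-/- day 4 fit 1184 of 9911 genes were called higher and 671 lower. For Ifnar1+/+ it was 18 and 5 of 10165 genes on day 4, and 368 and 85 of 10119 on day 6. A pseudocount of 0.1, no filter and limma-voom each gave 1 for Ifnar1-/- on day 4. In that order, 770 of 11829, 781 of 27830 and 771 of 11829 genes were called higher, and 139, 263 and 222 lower. Leaving out the 7 low-mitochondrial libraries gave counts of 4 for Ifnar1-/- on day 6, 0 between genotypes at day 4 and 1 between genotypes at day 6, where Bcl2l1 was higher (1.04, adjusted p = 0.0408). None of the 7 is in the Ifnar1-/- groups, so the changes of those mice against uninduced kept their size. Of all 11829 genes, 1579 were called higher and 831 lower for Ifnar1-/- on day 6 with the 7 left out. Between genotypes it was 511 and 304 at day 4, and 341 and 208 at day 6. The replicate block gave 1 for Ifnar1-/- on day 4, where Bcl2 was lost (-0.40, limma adjusted p = 0.073), beside 754 genes higher and 161 lower. It gave 3 between genotypes at day 4, where Bax was added (0.73, adjusted p = 0.0387), beside 1107 genes higher and 1057 lower. The other 11 counts were as in the main result. Correlations of same-numbered libraries ran from -0.365 to 0.378, so the numbers were not taken as pairs. Leaving out 1 library gave 0 to 1 members for Ifnar1+/+ on day 4, 0 to 3 on day 6, 1 to 2 for Ifnar1-/- on day 4 and on day 6, 2 to 3 between genotypes at day 4 and 1 to 2 with spermine at day 4. Added on day 6 were Bcl2a1d and Bid without Ifnar1+/+ uninduced replicate 2, beside 688 of 11829 genes higher and 401 lower. Without uninduced replicate 1 or 3, which gave 0, it was 382 and 75, and 366 and 122. Between genotypes Bax was added without Ifnar1+/+ PBS day 4 replicate 2, 5 or 6. There 1169, 1276 and 1160 genes were called higher, and 1186, 1298 and 1180 lower. With spermine Mcl1 was added without that PBS group's replicate 5, beside 457 genes higher and 822 lower. The counts of the other 7 comparisons and interactions stayed at 0.

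The Bcl2a1 copies had 0 to 58 reads each per library, and 1 read of a 2-kilobase gene was worth 0.0189 to 0.103 FPKM.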
